A study of Mus musculus with 2 samples.

Results

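The Hoxb cluster of the mouse lies on chromosome 11 and holds the 10 genes Hoxb13, Hoxb9, Hoxb8, Hoxb7, Hoxb6, Hoxb5, Hoxb4, Hoxb3, Hoxb2 and Hoxb1, all on the plus strand and named here in the order of their coordinates. Its members were taken by position, as every cytosine covered in both libraries of the study from 5.63 kb before Hoxb13 to 2.43 kb after Hoxb1 (mouse genome build NCBIM37, mm9). This rule gave 672 of 826937 covered cytosine positions, 334 on the plus and 338 on the minus strand, and each of the 672 was the cytosine of a CpG in NCBIM37. They belonged to 602 CpGs, or 16.0 % of the 3758 CpGs in these 182001 bp. The study compared DNA methylation in mouse embryonic fibroblasts (MEFs) of wildtype (wt) and oestrogen receptor β knock-out (βerko, genotype ESR2 -/-) mice, both on a C57BL/6 background. Reduced representation bisulfite sequencing (RRBS) was used, in which DNA is cut by MspI at CCGG, fragments of 160 to 340 bp are treated with bisulfite, and cytosines that still read as cytosine are scored as methylated. Each genotype had 1 library, made from pooled DNA of 3 batches, and the sources used here do not say whether the batches were separate embryos or cultures, so a difference between the libraries has no replicate check. Methylation calls do not show whether Esr2 was disrupted, and marker expression of the MEFs was not analysed here.

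Hox genes encode homeodomain transcription factors that give cells along the head-to-tail axis of the embryo their regional identity. Within a cluster the order of the genes on the chromosome broadly follows the order of their expression domains. Genes at the Hoxb1 end act towards the front, in the hindbrain, and Hoxb13 furthest to the back, in the tail bud, hindgut and prostate. The clusters are rich in CpG islands and are classical targets of Polycomb repression, and each gene has a second coding exon that carries the homeobox, the part that encodes the DNA-binding homeodomain.

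The following sequences surround the 10 CpGs of the locus with a differentially methylated position (DMP), unmethylated in one library and methylated in the other. They are shown because these CpGs carry the only positions of the locus with known read depth, and each is read 5′ to 3′ on the plus strand of NCBIM37, with the CpGs of DMPs in capitals.
Between Hoxb7 and Hoxb6, exon of 0610040B09Rik, chr11:96152454-96152534: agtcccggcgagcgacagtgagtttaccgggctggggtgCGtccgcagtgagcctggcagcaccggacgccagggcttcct
Hoxb6, second coding exon, chr11:96162090-96162197: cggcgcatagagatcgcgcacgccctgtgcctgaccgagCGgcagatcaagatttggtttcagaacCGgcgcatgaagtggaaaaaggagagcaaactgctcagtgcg
Hoxb5, second coding exon, chr11:96166276-96166362: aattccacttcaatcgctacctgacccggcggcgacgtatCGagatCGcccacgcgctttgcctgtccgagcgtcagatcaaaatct
Between Hoxb5 and Hoxb4, chr11:96172031-96172111: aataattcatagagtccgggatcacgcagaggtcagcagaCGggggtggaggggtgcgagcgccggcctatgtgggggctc
Hoxb3, intron, chr11:96201290-96201370: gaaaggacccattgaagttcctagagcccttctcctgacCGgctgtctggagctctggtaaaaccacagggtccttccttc
Hoxb3, second coding exon, chr11:96207429-96207543: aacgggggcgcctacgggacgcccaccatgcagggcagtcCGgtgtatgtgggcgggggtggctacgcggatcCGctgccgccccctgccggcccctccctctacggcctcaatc
Hoxb2, first coding exon, chr11:96213430-96213510: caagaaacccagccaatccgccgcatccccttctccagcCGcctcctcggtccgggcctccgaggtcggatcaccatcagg
The windows at Hoxb6 and Hoxb5 lie in the homeobox exon, and the DMPs there are 2 CpGs each. The window in the Hoxb3 intron holds 1 CpG, whereas the other windows hold between 6 and 12.

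Over the whole locus the Hoxb cluster had more positions of intermediate methylation than the covered genome, and the libraries differed in both directions. Mean methylation of the 672 positions was 28.3 % in wt and 26.0 % in βerko MEFs, and the medians were 19.1 and 12.8 %. For comparison, the mean of all covered positions was 40.7 and 38.8 %. Positions between 20 and 80 % methylation made up 40.6 % of the locus in wt (95 % Wilson interval 37.0 to 44.4 %) and 30.7 % in βerko (27.3 to 34.2 %), against 17.2 and 15.1 % of all covered positions. Below 20 % lay 346 positions in wt and 397 in βerko, and above 80 % lay 53 and 69. Neighbouring positions share reads and are not independent, so these intervals cover counting error over positions only. Methylation was lower in βerko MEFs by at least 20 percentage points at 149 positions (22.2 %), where the share over all covered positions was 10.4 %. It was higher by at least 20 percentage points at 114 positions (16.96 %), where the share over all covered positions was 6.81 %. The remaining 409 positions differed by less.

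A position near 0 or 100 % has room to differ in 1 direction only, so the positions are also given by their level in wt MEFs. Of the 346 positions below 20 % in wt, 62 (17.9 %, against 3.58 % of such positions over the genome) were higher in βerko by at least 20 percentage points and 8 of them lay above 80 % (2.31 % of the 346, against 0.494 %). Of the 273 intermediate positions, 132 (48.4 %, against 30.9 %) were lower and 52 (19.0 %, against 29.0 %) higher, and their median in βerko was 21.4 %. Of the 53 positions above 80 % in wt, 29 (54.7 %, against 80.5 %) stayed above 80 %, 21 (39.6 %, against 17.2 %) were intermediate and 3 (5.66 %, against 2.24 %) were below 20 % in βerko. Across the 672 positions, which share reads and libraries, Pearson's r between wt and βerko was 0.567 and Spearman's rho 0.498, given as a description. The same values over all 826937 positions were 0.902 and 0.881.

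A CpG read on both strands gives a scale for these differences, since both strands of a CpG are usually methylated together. At the 70 CpGs of the locus covered on both strands, the median gap between the strands was 12.6 percentage points in wt and 6.84 in βerko MEFs. The median absolute difference between the libraries at the 672 positions was 13.4 percentage points, close to the strand gap in wt, and over all covered positions it was 2.25. Of the 41 CpGs with a difference of at least 20 percentage points on at least 1 strand, 20 (48.8 %) had it on both strands in the same direction and 0 in opposite directions, shares near those over all such CpGs covered on both strands (47.8 and 0.922 %). Over all covered positions the strand gap had medians of 1.80 and 1.35. Read depth of positions outside the DMP tables was not used here, and its part in the wider gap at Hoxb was not tested. Intermediate positions in wt made up 40.6 % of the locus against 17.2 % of all covered positions. The part of this share in the strand gaps, the differences between the libraries and the correlations was not tested either.

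**Figure D1:**
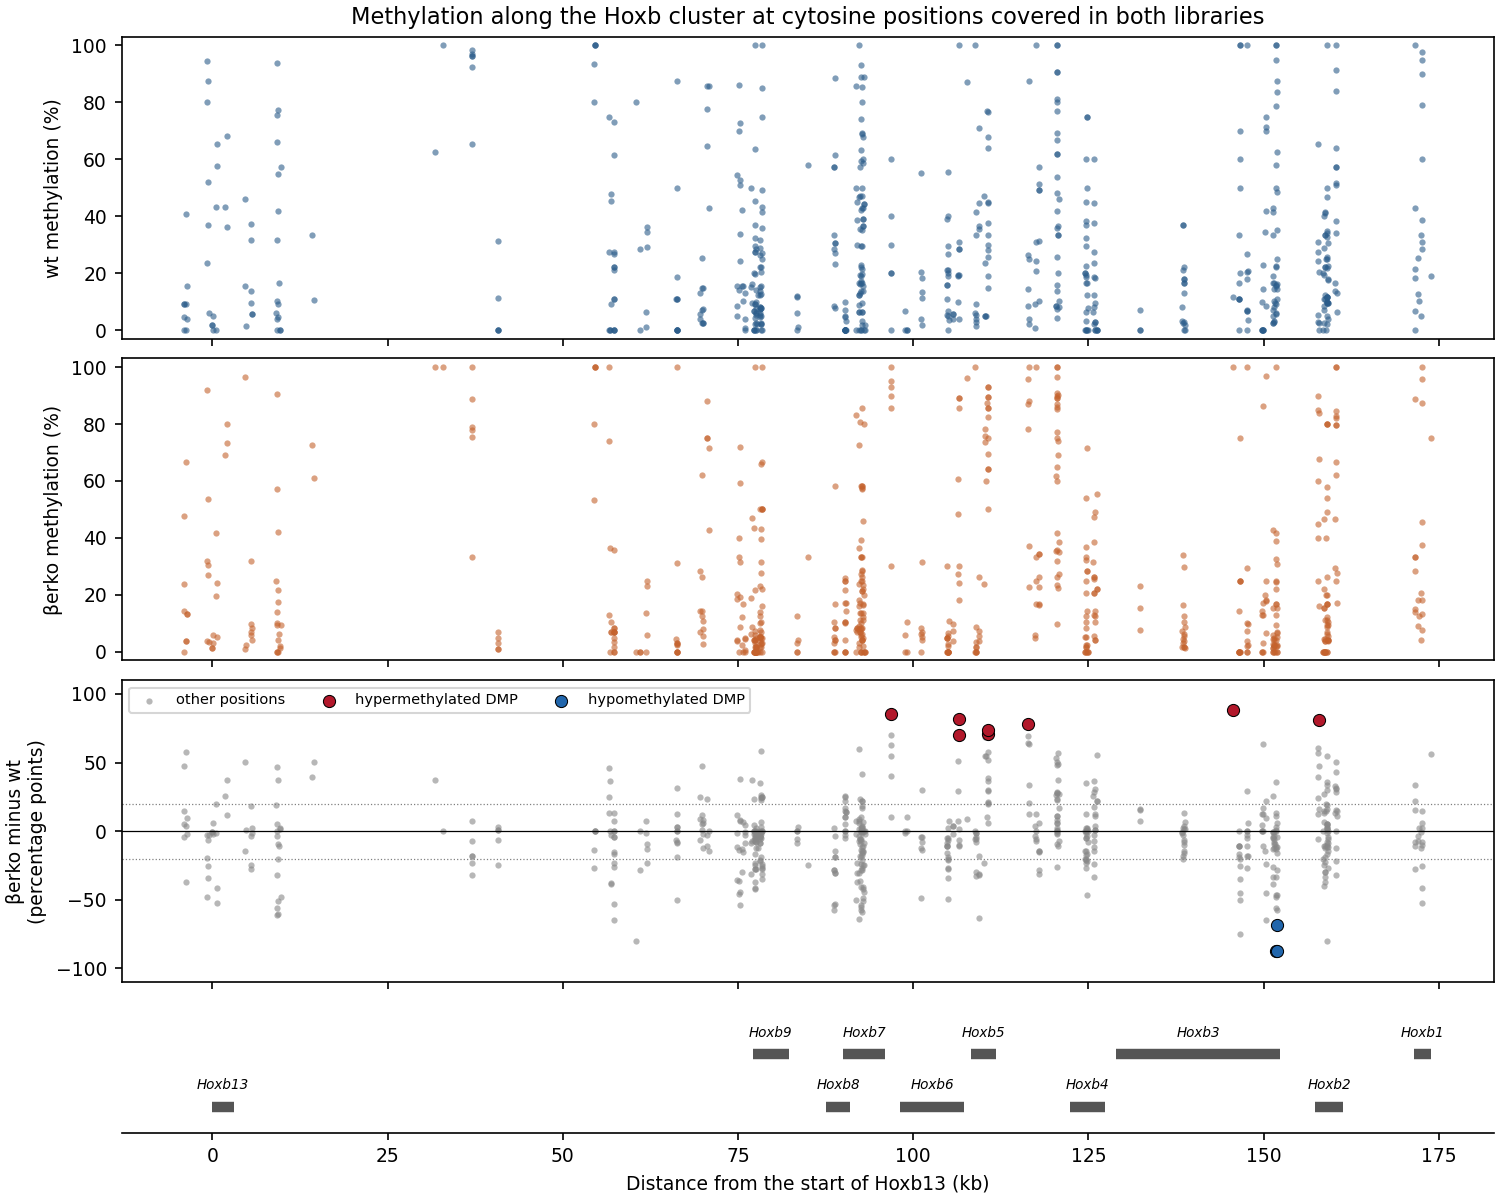
Methylation of each of the 672 positions in wt (top, %) and βerko MEFs (middle, %) and the difference, βerko minus wt (bottom, percentage points), against the distance from the start of Hoxb13 in kb, with the genes as bars below and dotted lines at 20 percentage points. Large points mark the 8 hypermethylated and 3 hypomethylated DMPs, of which 6 of the hypermethylated lie between the end of Hoxb7 and the start of Hoxb4.

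The direction of the differences changed along the cluster. From the start of the locus at Hoxb13 to the end of Hoxb7, mean methylation of 319 positions was 28.5 % in wt and 21.4 % in βerko MEFs, with 84 positions lower and 36 higher by at least 20 percentage points and no DMP. From the end of Hoxb7 to the start of Hoxb4, a stretch of 26.3 kb around Hoxb6 and Hoxb5, the mean of 126 positions was 31.5 % in wt and 42.8 % in βerko, with 16 lower, 43 higher and 6 hypermethylated DMPs. From Hoxb4 to Hoxb1 the mean of 227 positions was 26.4 and 23.1 %, with 49 lower and 35 higher. Thus the middle stretch had the higher mean in βerko and both flanks the higher mean in wt. The bounds are those of genes, but they were picked after the values were seen, so no test was made.

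DMPs followed the criterion of the study, a position read more than 4 times in each library and methylated under 20 % in wt and over 80 % in βerko, or the reverse. The locus held 8 hypermethylated DMPs (methylated in βerko only), which were 1.19 % of its positions against 0.237 % of all covered positions. It held 3 hypomethylated DMPs (methylated in wt only), 0.446 % of its positions against 0.700 % overall. All 11 had an adjusted p-value below the threshold of 0.05 in Fisher's exact test on methylated and unmethylated reads (two-sided, Benjamini-Hochberg adjusted over 826937 positions), from 2.69e-18 to 0.00837. This compares the reads of 2 libraries, not the genotypes, and because the DMPs were chosen by their difference it speaks of counting error only. Over all covered positions, 0.212 % were hypermethylated and 0.642 % hypomethylated DMPs that passed. Depth at the 11 DMPs was 8 to 51 reads in wt (median 37) and 14 to 45 in βerko (median 28), and since PCR reads without molecular identifiers can overstate the number of molecules, intervals and tests cover counting error only.

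Hoxb6 and Hoxb5, which act in the trunk and, for Hoxb5, in lung and enteric nerve development, each had 2 hypermethylated DMPs in the homeobox exon. In Hoxb6 the position at 96162130 on the minus strand was methylated in 19.2 % of 26 reads in wt (exact 95 % interval 6.55 to 39.4 %) and in 89.3 % of 28 reads in βerko (71.8 to 97.7 %). The position at 96162157 was methylated in 3.85 % of 26 reads in wt (0.0973 to 19.6 %) and 85.7 % of 28 in βerko (67.3 to 96.0 %). The intervals of the libraries did not overlap at either, but DMPs were chosen by a large difference, and the share over all DMPs was not computed. In Hoxb5 the position at 96166316 on the plus strand was methylated in 14.9 % of 47 reads in wt (6.20 to 28.3 %) and 85.7 % of 14 in βerko (57.2 to 98.2 %). At 96166322, it was methylated in 19.1 % of 47 (9.15 to 33.3 %) and 92.9 % of 14 reads (66.1 to 99.8 %). The DMPs of each gene had the same depth as each other and lie close together, so they can stem from the same reads and are not 2 separate observations.

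The other hypermethylated DMPs stood alone. Between Hoxb7 and Hoxb6, in an exon of the antisense transcript 0610040B09Rik, the position at 96152494 was methylated in 0 % of 10 reads in wt (0 to 30.8 %) and 85.7 % of 14 in βerko (57.2 to 98.2 %), the shallowest of the hypermethylated DMPs. Between Hoxb5 and Hoxb4, at 96172071, methylation was 8.51 % of 47 reads in wt (2.37 to 20.4 %) and 87.0 % of 23 in βerko (66.4 to 97.2 %). Hoxb2, which patterns the hindbrain, had a DMP in its first coding exon at 96213470, with 2.56 % of 39 reads in wt (0.0649 to 13.5 %) and 83.9 % of 31 in βerko (66.3 to 94.5 %). The deepest DMP lay in an intron of Hoxb3 at 96201330, with 11.8 % of 51 reads in wt (4.44 to 23.9 %) and 100 % of 45 in βerko (92.1 to 100 %). It is the only CpG in its window, and no other covered position lay in the 81 bp around it.

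Hoxb3, a further hindbrain and thyroid regulator, carried all 3 hypomethylated DMPs, in its second coding exon beyond the homeobox. At 96207469 on the plus strand, methylation was 100 % of 8 reads in wt (63.1 to 100 %) and 12.8 % of 39 in βerko (4.30 to 27.4 %). At 96207503 on the minus strand, it was 83.8 % of 37 reads in wt (68.0 to 93.8 %) and 15.6 % of 45 in βerko (6.49 to 29.5 %). The plus-strand cytosine of the latter CpG, at 96207502, had 87.5 % of 8 reads in wt (47.3 to 99.7 %) and 0 % of 39 in βerko (0 to 9.03 %) and is named here after its values were seen. With both strands showing the difference, this CpG rests on separate reads of each strand. The minus-strand partner of 96207469 had 94.7 % in wt and 39.0 % in βerko, lower as well but above the limit for a DMP. With at least 10 reads required, 1 of the 3 hypomethylated and 8 of the 8 hypermethylated DMPs remained.

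**Figure D2:**
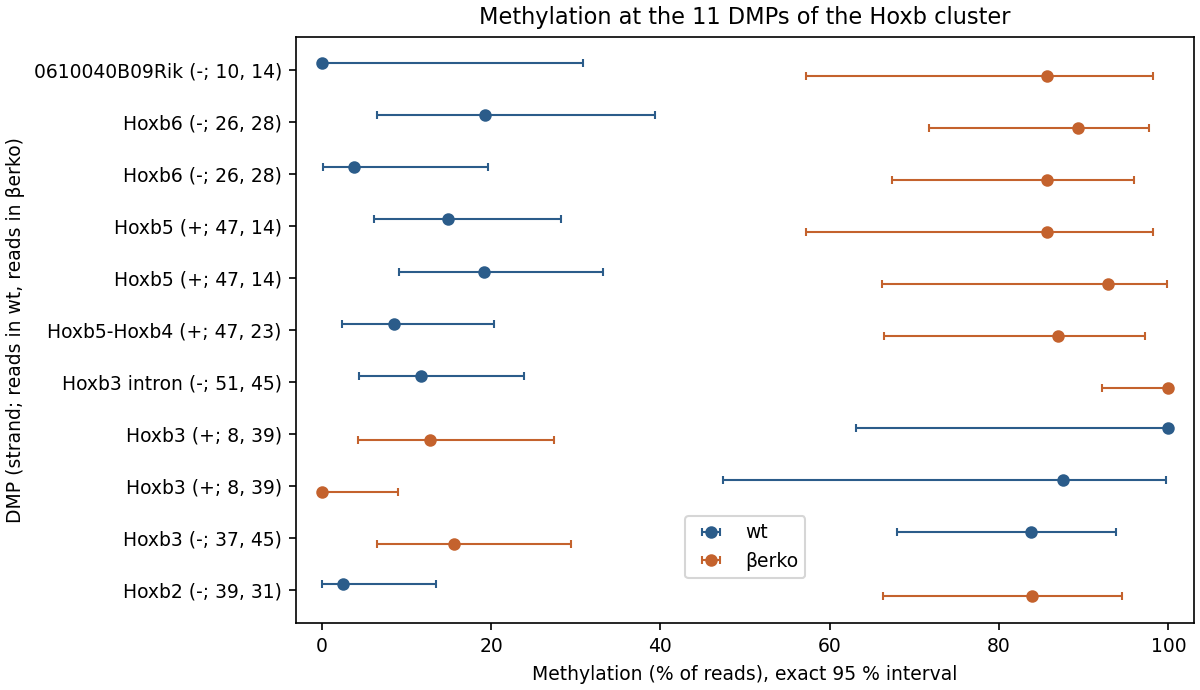
Methylation (% of reads) in wt and βerko MEFs at the 11 DMPs, in order of position, with exact 95 % intervals as bars; labels give the gene or neighbouring genes, the strand and the reads in wt and βerko. At each of the 11 the intervals of the libraries are apart, which the choice of DMPs by a large difference favours. The widest interval is that of the Hoxb3 position at 96207502 with 8 reads in wt (47.3 to 99.7 %).

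Taken with their neighbours, most hypermethylated DMPs lay in stretches whose mean was higher in βerko MEFs, a mean in which the DMPs themselves count. Positions were joined into blocks wherever the gap to the next was at most 300 bp, a definition chosen after the data were seen, and 42 blocks with at least 5 positions held 630 of the 672 positions. The block mean was higher in βerko by at least 20 percentage points in 5 blocks (11.9 %, against 2.73 % of the 36726 blocks of all covered positions) and lower in 2 (4.76 %, against 7.15 %). With blocks split at gaps over 150 bp, 6 were higher and 5 lower, so the contrast between the directions depends on this definition. All 5 higher blocks contain a hypermethylated DMP (7 of the 8 in all), and the DMP in the Hoxb3 intron stood in no block of this size. The largest block difference was at the 0610040B09Rik exon, where 6 positions from 96152481 to 96152518 averaged 28.3 % in wt and 82.3 % in βerko. Between Hoxb5 and Hoxb4, 7 positions from 96172047 to 96172179 had 24.0 and 72.7 %. Positions past 20 percentage points in both directions occurred in 18 of the 42 blocks (42.9 %), where the share over all blocks was 18.0 %. Among neighbouring positions within 100 bp, 573 pairs in all, the differences had a Pearson's r of 0.457 as a description, and 21 pairs were past 20 percentage points in opposite directions.

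Uninterrupted runs, at least 5 positions in a row with gaps of at most 100 bp that all differed by at least 20 percentage points in 1 direction, were found 4 times. Higher in βerko were 8 positions in the Hoxb5 homeobox exon, from 96166302 to 96166328, which ranged from 14.9 to 63.8 % in wt and from 50 to 92.9 % in βerko. Also higher were 5 positions at the 0610040B09Rik exon, from 96152493 to 96152518, with 0 to 60 % in wt and 85.7 to 100 % in βerko. Lower were 5 positions at the end of the first coding exon of Hoxb7 and the start of its intron, from 96148415 to 96148452, with 36.6 to 67.7 % in wt and 2.02 to 16.7 % in βerko. At Hoxb7 and at the 0610040B09Rik exon the ranges of the libraries did not overlap, which the choice of runs by their differences favours. The other lower run had 6 positions in an exon of another Hoxb3 transcript, from 96202259 to 96202283, with 20.0 to 100 % in wt and 0 to 75 % in βerko. These positions lie within 25 bp on the minus strand, and in βerko they took only the values 0, 25 and 75 %. They can stem from the same reads, whose number is not known. Runs higher in βerko held 1.93 % of the positions of the locus against 0.142 % of all covered positions, and runs lower in βerko 1.64 % against 1.87 %. The run at Hoxb7, in which no position is a DMP, is shown on the plus strand with the CpGs of its 5 positions in capitals.
Hoxb7, end of the first coding exon, chr11:96148395-96148472: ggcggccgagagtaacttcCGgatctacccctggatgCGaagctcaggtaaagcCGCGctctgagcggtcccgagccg
The CpG at 96148449 was read on both strands, with 60.2 % in wt and 11.2 % in βerko on the plus strand and 58.6 and 16.4 % on the minus strand. At the CpG at 96148414, the minus-strand position, which opens the run, had 67.7 % in wt and 16.7 % in βerko. Its plus strand had 15.5 and 5.05 %, a difference of less than 20 percentage points, and is not in the run.

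Averaged over each gene with the 2 kb before it, 6 of the 10 Hoxb genes had a lower mean in βerko MEFs and none differed by 20 percentage points. Of all 15398 genes with at least 5 covered positions, 62.3 % had a lower mean, so 6 of 10 is near the background, and 3.08 % were lower and 0.552 % higher by at least 20 percentage points. Because some of these genes overlap, a position can count in more than 1 gene. The largest difference towards a higher mean was at Hoxb5, 33.8 % in wt and 50.5 % in βerko over 41 positions. The largest towards a lower mean was at Hoxb7, 30.3 and 19.0 % over 95 positions, followed by Hoxb3 with 26.1 and 15.4 % over 95 positions. With 5 kb upstream the difference at Hoxb5 was 6.98 in place of 16.7 percentage points, and over the gene body alone Hoxb3, at −10.6, was lower than Hoxb7, at −8.85. The sign at Hoxb13, Hoxb6 and Hoxb4 depended on the upstream sequence, since over the gene body alone the differences were 0.351, −2.38 and −0.80 percentage points in place of −7.52, 4.96 and 6.16.

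**Figure D3:**
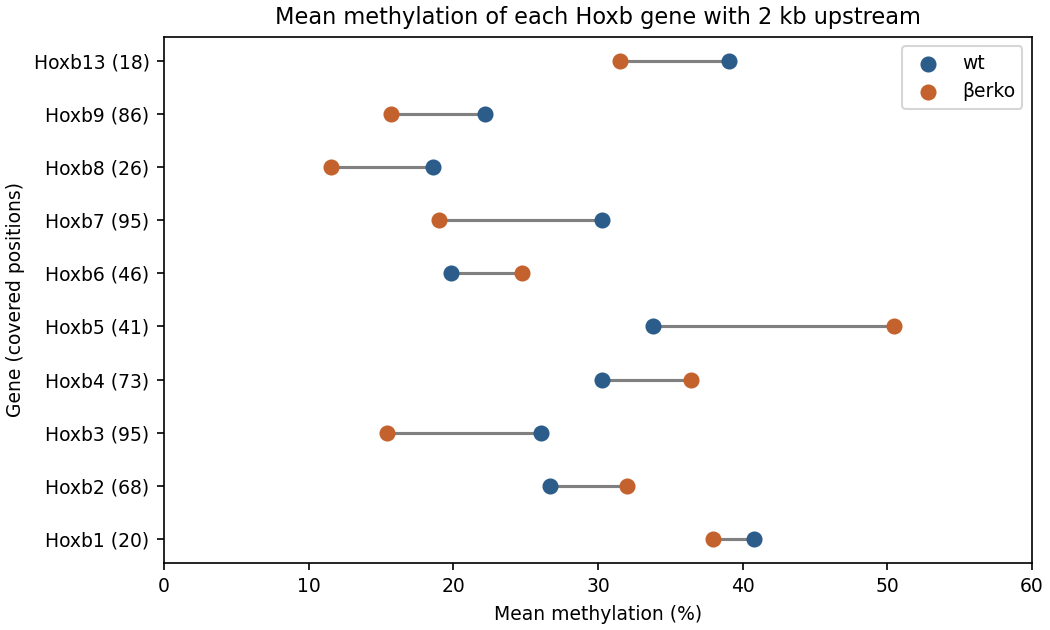
Mean methylation (%) of each Hoxb gene with 2 kb upstream in wt and βerko MEFs, from 1 library each, with the number of covered positions in brackets. Hoxb5 has the largest higher mean in βerko (50.5 against 33.8 %) and Hoxb7 the largest lower one (19.0 against 30.3 %).

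Within the genes, the first coding exons were mostly lower in βerko MEFs and the homeobox exons were mixed. The mean of the first coding exon was lower in βerko in 8 of 10 genes, with Hoxb2 and Hoxb1 as the exceptions, and 49 of its 144 covered positions were lower and 15 higher by at least 20 percentage points. The homeobox exon was covered in 7 genes, lower in 3 (Hoxb3, Hoxb2 and Hoxb1) and higher in 4 (Hoxb13, Hoxb6, Hoxb5 and Hoxb4), with 27 of 129 positions lower and 27 higher. For these exon counts no share over the coding exons of all genes was computed. Of all genes with 2 kb upstream, 62.3 % had a lower mean. Whether the contrast between the exons is particular to Hoxb was not tested. Over the locus as a whole, coding exons averaged 29.4 % in wt and 23.3 % in βerko over 273 positions, introns 20.6 and 17.7 % over 120, and other exon sequence 26.9 and 26.1 % over 149. Sequence between genes had 34.7 and 39.1 % over 130 positions, the only one of these classes with a higher mean in βerko.

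**Figure D4:**
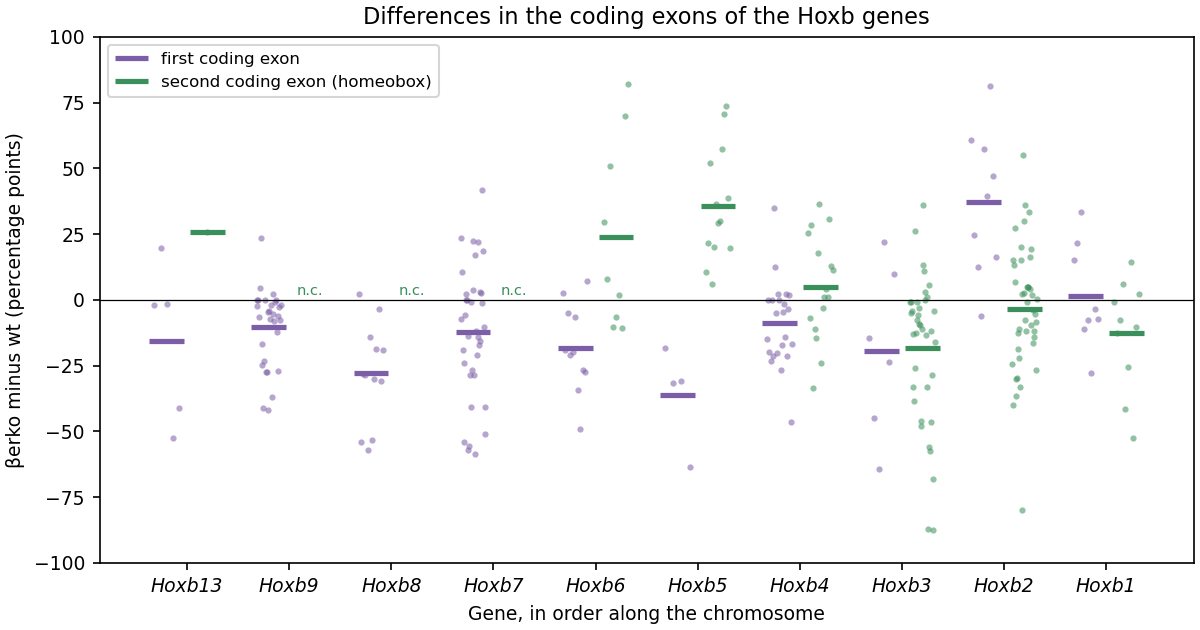
Difference in methylation, βerko minus wt (percentage points), of each covered position in the first and second coding exon of the 10 Hoxb genes in order along the chromosome; horizontal bars are means and n.c. marks exons with no covered position. The means of first exons lie below 0 in 8 genes, and Hoxb6 and Hoxb5 have first exons below and second exons above 0.

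The genes at the posterior end, Hoxb13, Hoxb9, Hoxb8 and Hoxb7, had lower methylation in βerko MEFs in their first coding exons. At Hoxb13, the most posterior gene and a known regulator of prostate development, 5 positions averaged 34.3 % in wt and 18.7 % in βerko. The largest difference was at 96056255, with 57.7 % in wt and 5.26 % in βerko, whereas 96057685 in the untranslated part had 36.4 and 73.3 %. At Hoxb9, which specifies thoracic identity together with its paralogues, 30 positions averaged 17.4 and 7.09 %, with 8 lower and 1 higher by at least 20 percentage points. Its lowest difference was at 96133049, with 63.6 % in wt and 21.7 % in βerko. The highest lay in its intron, at 96133895, with 7.69 and 65.8 %. These positions did not stand alone. The 3 positions of Hoxb13 from 96057490 to 96057705 averaged 49.3 % in wt and 74.2 % in βerko. Within the bounds of Hoxb9, 16 positions were lower and 9 higher by at least 20 percentage points. Other parts of Hoxb13 and Hoxb9 thus held positions that went against the direction of the first coding exon.

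Hoxb8, which acts in spinal cord and in myeloid progenitors, had no position higher by at least 20 percentage points among the 12 of its first coding exon, and 7 that were lower. Their mean was 37.8 % in wt and 9.91 % in βerko, and the position at 96144354 had 57.1 and 0 %. This exon made up 1 of the 2 blocks whose mean was lower by at least 20 percentage points. Hoxb7, which patterns the thoracic vertebrae with its paralogues, had 36 covered positions in the first coding exon, with means of 37.2 and 25.01 %, 12 lower and 4 higher. In its untranslated part the position at 96147903 had 12.5 % in wt and 72.7 % in βerko, and that at 96147910, a few bases away, had 100 and 36.4 %. The other strand of the latter CpG had 46.7 and 16.0 %. Differences of both signs therefore lay within 1 short stretch of Hoxb7.

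In the middle of the cluster the coding exons of 1 gene differed in opposite directions. In Hoxb6 the 11 positions of the first coding exon averaged 20.7 % in wt and 2.52 % in βerko, with 6 lower and 0 higher, and the 9 positions of the homeobox exon had 28.8 and 52.6 %, with 0 lower and 4 higher. The extremes outside the DMPs were 96160652, with 55.6 and 6.52 %, and 96162093, with 9.76 and 60.6 %. In Hoxb5 the 4 covered positions of the first coding exon ranged from 35.5 to 71.0 % in wt and from 3.70 to 26.4 % in βerko. These ranges did not overlap, but the share of exons over the genome with ranges apart was not computed. The positions 96165021, 96165039 and 96165054 lie close together on the minus strand, so they can stem from the same reads. The 13 positions of its homeobox exon averaged 43.3 % in wt and 79.1 % in βerko, with 0 lower and 10 higher. In the intron of Hoxb5, 96165925 had 4.92 and 75.7 %. The exons of both genes thus showed lower methylation at the front and higher methylation at the homeobox in βerko MEFs, in 1 library of each genotype.

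Hoxb4, which promotes expansion of blood stem cells, had smaller differences. The 23 positions of its first coding exon averaged 26.0 % in wt and 17.2 % in βerko, and the 16 of its homeobox exon 17.1 and 21.9 %. The positions with the largest differences were 96180415, with 75 and 28.6 %, and 96181852 in the untranslated part, with 0 and 55.6 %. The sequence before Hoxb4 held 29 positions from 96176074 to 96176478 with means of 45.9 % in wt and 62.6 % in βerko, 13 of them higher and 1 lower by at least 20 percentage points. They are the positions that the 2 kb before Hoxb4 add to its gene body.

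At the anterior end, Hoxb3 was lower in βerko MEFs and Hoxb2 was split between its exons. The 38 positions of the second coding exon of Hoxb3 averaged 31.5 % in wt and 13.4 % in βerko, with 13 lower and 2 higher by at least 20 percentage points. In the first coding exon of Hoxb3, 6 positions had 50.1 and 30.8 %. Against this direction, 96205548 in its untranslated part had 22.9 % in wt and 86.2 % in βerko, while the 8 other positions of the same block stayed at or below 17.1 % in both libraries. In Hoxb2 the 9 positions of the first coding exon had 19.9 and 57.0 %, with 0 lower and 6 higher, and the 42 of the homeobox exon 22.0 and 18.6 %, with 9 lower and 6 higher. The largest higher value outside the DMPs was at 96213340, with 24.1 % in wt and 85.0 % in βerko. The lowest was at 96214613 on the plus strand, with 100 and 20.0 %, yet the other strand of that CpG had 4.88 and 7.02 %, so this difference was seen on 1 strand only.

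Hoxb1, which gives the fourth hindbrain segment its identity, had the highest mean in wt MEFs of the 10 genes, 40.8 %, and 37.9 % in βerko over 20 positions. Its first coding exon had 28.4 and 30.1 % over 8 positions and its homeobox exon 55.8 and 43.0 % over 10, with 3 lower. At 96229459 in its untranslated part, methylation was 19.1 % in wt and 75 % in βerko. At 96228242 it was 60 and 7.55 %, while the other strand of this CpG had 31.0 and 45.5 %. As in Hoxb2, the lowest difference in Hoxb1 was not shared by the other strand.

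Promoters were taken from 1 kb before to 500 bases after each annotated transcript start, and those of Hoxb4 held no covered position. Of the 9 covered promoters, 5 had a lower mean in βerko MEFs. No share over the promoters of all genes was computed, and of all genes with 2 kb upstream 62.3 % had a lower mean. The lowest differences were at Hoxb8, where the promoter positions are those of its first coding exon, and at Hoxb6, with 19.7 % in wt and 4.28 % in βerko over 17 positions. All or most covered promoter positions of Hoxb9, Hoxb6, Hoxb2 and Hoxb1 also lie in the first coding exon. Their promoter means are thus not separate from the exon means given above. At Hoxb13 the mean was 35.4 and 23.1 % over 11 positions, and at Hoxb9 it was 18.5 and 8.90 % over 33. At Hoxb3 it was 24.6 and 18.7 % over 22 positions from 4 transcript starts. Higher in βerko were Hoxb7, with 2.15 and 12.95 % over 14 positions, and Hoxb2, with 37.1 and 60 % over 4. The 14 positions at Hoxb7, from 96145849 to 96146021, also lie in the untranslated part of Hoxb8. Outside this window, the block around the first coding exon of Hoxb7, from 96147493 to 96148707, averaged 34.7 % in wt and 21.8 % in βerko over 69 positions. Hoxb1 had 26.4 and 28.1 % over 9 positions, and the promoter of Hoxb5 rested on 1 position. From 250 bases before to 50 after the starts, only Hoxb13, Hoxb9 and Hoxb3 were covered, and the 12 positions at Hoxb3, with 40.3 % in wt and 13.7 % in βerko, were the block that holds its lower run. In this narrower window Hoxb9 turned direction, with 12.9 and 27.9 % over 2 positions.

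The homeobox exons made it possible to set CpGs at the same place of related sequences side by side. The second coding exons were aligned without gaps to that of Hoxb5, to which 70.2 % of the bases of Hoxb6, 71.0 % of Hoxb4, 61.6 % of Hoxb3, 56.7 % of Hoxb2 and 52.7 % of Hoxb1 were identical. Those of Hoxb9, Hoxb8 and Hoxb7 held no covered position, and that of Hoxb13 held 1. The stretch of 65 bases that begins at base 81 of the Hoxb5 exon is shown because it was covered in 6 genes and holds both Hoxb5 DMPs. It is read on the plus strand of NCBIM37, with covered CpGs in capitals.
Hoxb6, chr11:96162066-96162130: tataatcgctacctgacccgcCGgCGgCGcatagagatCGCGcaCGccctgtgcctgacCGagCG
Hoxb5, chr11:96166284-96166348: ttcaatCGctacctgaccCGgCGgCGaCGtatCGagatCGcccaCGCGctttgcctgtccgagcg
Hoxb4, chr11:96181433-96181497: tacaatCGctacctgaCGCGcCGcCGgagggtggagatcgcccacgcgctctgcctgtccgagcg
Hoxb3, chr11:96207045-96207109: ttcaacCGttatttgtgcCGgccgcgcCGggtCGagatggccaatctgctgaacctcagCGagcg
Hoxb2, chr11:96214362-96214426: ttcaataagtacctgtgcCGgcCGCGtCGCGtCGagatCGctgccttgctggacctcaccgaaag
Hoxb1, chr11:96228217-96228281: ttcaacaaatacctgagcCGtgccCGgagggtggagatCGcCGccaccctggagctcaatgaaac
Of the 65 bases, 55 of Hoxb6 and 55 of Hoxb4 were identical to Hoxb5, 44 of Hoxb3 and of Hoxb2, and 36 of Hoxb1.

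In this stretch the genes of the cluster differed in opposite directions. The 10 positions of Hoxb5 averaged 38.1 % in wt and 76.3 % in βerko MEFs, with 8 higher by at least 20 percentage points. The 8 positions of Hoxb6 had 32.0 and 48.5 %, with 3 higher, and neither gene had a position lower by that much here. The 8 positions of Hoxb2 had 27.2 % in wt and 2.90 % in βerko, with 5 lower and 0 higher. The 5 positions of Hoxb1 had 51.2 and 36.9 %, with 2 lower, and those of Hoxb3 had 10.4 and 3.26 %, with none past 20 percentage points. Hoxb4, as like Hoxb5 in sequence as Hoxb6, had 21.1 and 23.6 % over 5 positions, with 1 lower and 1 higher.

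The values of single aligned CpGs lie behind these means. At base 119, the DMP of Hoxb5 with 19.1 % in wt and 92.9 % in βerko, Hoxb2 had 33.3 and 0 %. Hoxb6 and Hoxb1 at that base each had 28.6 and 18.2 %. At base 108, Hoxb5 had 28.3 and 85.7 % and Hoxb6 had 9.76 and 60.6 %. Hoxb2 had 22.2 and 3.70 % there, and Hoxb3 10.2 and 2.5 %. At base 99, both strands were read in Hoxb5 and Hoxb2: the Hoxb5 values were 29.8 and 50 % on the plus and 33.3 and 69.6 % on the minus strand, and those of Hoxb2 were 41.2 and 11.1 % and 41.4 and 4.69 %. The direction was the same on both strands of Hoxb5 and of Hoxb2. On the minus strand at base 99, Hoxb4 had 2 % in wt and 38.5 % in βerko, Hoxb1 38.8 and 13.2 %, and Hoxb3 2.78 and 2.13 %. Whether reads of these related exons could be placed on one another was not tested.

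**Figure D5:**
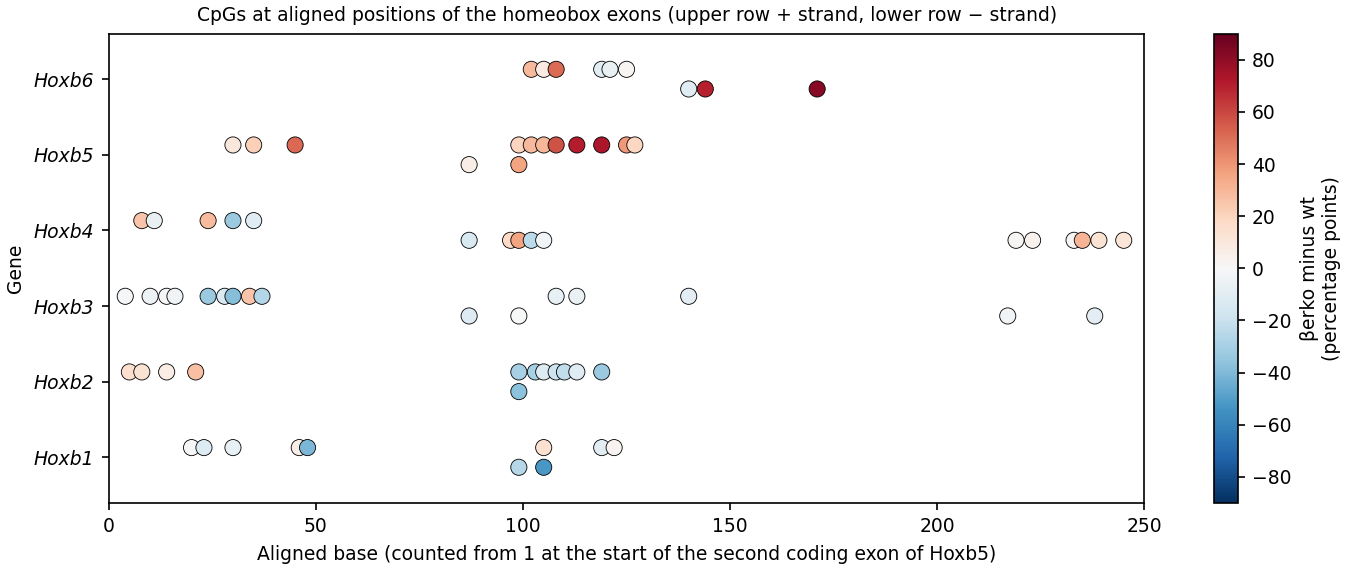
Difference in methylation (colour, βerko minus wt, percentage points) of covered CpGs at aligned bases of the homeobox exons of Hoxb6 to Hoxb1, counted from 1 at the start of the second coding exon of Hoxb5, with plus-strand positions in the upper and minus-strand positions in the lower row of each gene. Around bases 99 to 119, Hoxb5 is red throughout (8 positions higher in the printed stretch), whereas Hoxb2 is blue (5 lower, 0 higher).

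The other Hox clusters, which hold the paralogues of these genes on chromosomes 6, 15 and 2, are given side by side with no test, as positions are not replicates. Positions between 20 and 80 % methylation in wt MEFs made up 40.6 % at Hoxb, 5.94 % of 673 positions at Hoxa, 41.2 % of 517 at Hoxc and 32.6 % of 674 at Hoxd. In βerko MEFs the shares were 30.7, 34.3, 35.6 and 26.6 %. Hoxb had 3 hypomethylated and 8 hypermethylated DMPs, whereas Hoxa had 52 and 9, Hoxc 3 and 2, and Hoxd 66 and 6. As shares of positions, hypermethylated DMPs were 1.19 % at Hoxb, 1.34 % at Hoxa, 0.387 % at Hoxc and 0.890 % at Hoxd, against 0.237 % of all covered positions. Hypomethylated DMPs were 0.446, 7.73, 0.580 and 9.79 % in the same order, against 0.700 %. Hypermethylated DMPs outnumbered hypomethylated ones at Hoxb and not at the other clusters, a difference that was not tested. The hypermethylated share itself was not highest at Hoxb.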

How the data were processed

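Each genotype had 1 RRBS library, cut with MspI, amplified over 19 PCR cycles and made from a pool of 3 DNA batches. The submitters' processing notes name CASAVA 1.4 and mm9. For placing reads on the genome the authors used the Genomatix Mining Station, and the deposited main table gives percent methylation per cytosine for both libraries but no depth. For positions past their thresholds the authors deposited read counts per library together with annotation from RegionMiner, which was not used. Total reads per library were not used, and no interval is given where depth is unknown.

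From these tables, positions of the locus were described by counts, means and medians. Methylated reads were the percent times the read count, rounded. Gene models were GENCODE vM1 on NCBIM37, the sequences of which were read from that build. Intervals of shares are Wilson intervals and those of DMPs exact Clopper-Pearson intervals, both at 95 %. The members and lists were chosen with earlier results of these data known. All 10 Hoxb genes were named, with other genes of the locus that hold a DMP, the first, last and deepest DMP of each run (gaps of at most 500 bp), the position with the largest difference in each direction per gene, and runs of at least 5 positions. Blocks, stretches and the homeobox alignment were set after the data were seen. Procedures were tested on simulated data. Python 3.11.15, NumPy 2.4.6, pandas 2.3.3, SciPy 1.17.1 and matplotlib 3.10.9 were used. Alternatives were tried for thresholds, depth, strands, bounds and windows.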

Additional observations from a re-analysis of the deposited data

How the results depend on the processing

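Locus means kept their order, 27.4 to 28.4 % in wt and 25.7 to 26.0 % in βerko MEFs, with strands merged, with the bounds of the annotated genes and for Hoxb9 to Hoxb1 alone. Counts moved with the thresholds. Positions lower in βerko numbered 149 at 20 percentage points, 234 at 10 and 53 at 40, and higher positions 114 at 20 and 46 at 40. With limits of 10 and 90 % in place of 20 and 80 %, 34.5 % of positions in wt and 45.4 % in βerko were unmethylated and 5.21 and 5.36 % methylated, and with 30 and 70 % these were 63.7, 70.1, 11.3 and 14.7 %. Hypomethylated DMPs numbered 1 with at least 10 or at least 20 reads or with strands merged and 0 with limits of 10 and 90 %, and 1 passed with Bonferroni adjustment. Hypermethylated DMPs numbered 5 with at least 20 reads and 0 with limits of 10 and 90 %, and 4 passed with Bonferroni adjustment. Of the promoters, 2 were lower in the window from 250 bases before to 50 after the start, where 3 were covered. With blocks split at gaps over 150 bp, chosen after seeing the data, 5 were lower and 6 higher. The direction of Hoxb13, Hoxb6 and Hoxb4 turned without upstream sequence, and that of the Hoxb9 promoter in the narrower window. No paired analysis was possible because each genotype had 1 library, and for the same reason no replicate could be left out. Depth outside the DMP tables was not used, so single positions there have no known counting error.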

Other observations

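The locus also holds transcripts other than the Hoxb genes. The antisense transcript 0610040B09Rik, which runs from 96152338 to 96168224 across Hoxb6 and Hoxb5, averaged 26.1 % in wt and 35.1 % in βerko MEFs over 78 positions, with 13 lower and 24 higher by at least 20 percentage points and 5 of the 11 DMPs. Hoxb3os, antisense to the end of Hoxb3 and to Hoxb2, had 27.7 and 23.5 % over 100 positions, with 24 lower, 17 higher and 4 DMPs. Gm11536, antisense within Hoxb3, had 30.7 and 18.7 % over 23 positions, with 7 lower, 2 higher and 1 DMP. Many of these positions also lie in Hoxb genes. Between Hoxb13 and Hoxb9, Gm53 had 19.6 and 11.6 % over 45 positions, with 10 lower and 3 higher, and the lincRNA Gm11538 had 33.9 and 17.9 % over 16. The microRNA gene Mir196a-1 had 1 covered position, with 85.7 and 71.4 %, and Mir10a, within the annotated bounds of Hoxb4, had none.

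Of 23 genes for Hox cofactors and regulators, Meis2, which encodes a homeodomain partner of Hox proteins, was lower by at least 20 percentage points, with averages of 48.6 % in wt and 26.3 % in βerko MEFs over 104 positions. None was higher by that much, and over all genes the shares were 3.08 and 0.552 %. Cyp26a1, which degrades retinoic acid, an inducer of Hox genes, had 56.7 and 37.8 % over 61 positions, and Pknox2, a further homeodomain partner, 47.8 and 34.1 % over its covered positions. The Polycomb genes Ezh2 and Eed were nearly unmethylated in both libraries, with 0.305 and 0.200 % and with 1.27 and 0.243 %. Other Polycomb genes of the list had higher means in wt than Ezh2 and Eed, with 1.70 % in wt and 1.92 % in βerko at Rnf2 and 4.07 and 2.09 % at Bmi1. Suz12 had 8.61 and 7.57 %, and Cbx2 21.9 and 20.5 %. The median difference of the 23 genes was −1.43 percentage points. Of these genes 16 (69.6 %, against 62.3 % of all genes) had a lower mean and 7 a higher one. The largest higher difference was at Pbx4, with 50.8 and 58.7 % over 7 positions.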
